A study of Mus musculus with 8 samples.

Results

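The genes described here are 9 cell surface molecules of homing and migration, followed in HSCs and LSK cells cultured with or without red blood cells (RBCs). They are the chemokine receptors Cxcr4, Cxcr5, Ccr1 and Ccr2, the sphingosine 1-phosphate receptor S1pr1, the adhesion G protein-coupled receptor Adgre5 (CD97), and the adhesion molecules Selplg, Cd44 and Cd47. They are 9 of 24346 gene symbols with a value in every library, and all 9 were among the 12003 genes that passed the filter for testing (2 or more libraries with 1 FPKM or more). The members were selected on their FPKM values in these 8 libraries, and Adgre5 was also among the genes the study picked for higher expression in both populations. Their differences are therefore a description of these libraries. The calls of single members, which use p-values from limma, are part of that description. No p-value is printed for a member or given for the list.

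All cells came from the bone marrow of WT C57BL/6 mice. LSK cells were sorted as Lin-/Sca-1+/cKit+ cells, a gate that also holds multipotent progenitors. HSCs were sorted with the same markers and as CD48- and CD150+ in addition. Each population was kept for 1 day either alone (single culture) or in co-culture with RBCs, which were mouse blood passed through a leukocyte filter and irradiated. After culture, RBCs were lysed and CD45-positive cells were sorted, with no gate on Sca-1 or c-Kit at that step, so any cells that had differentiated during the culture were included. Each of the 4 groups had 2 libraries. The labels do not say whether the libraries of a group came from separate animals, so the SDs and p-values cover only the spread between these libraries, which may be technical. In such bulk RNA, fewer cells of a type and less RNA per cell cannot be told apart.

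Stem and progenitor cells are held in the bone marrow and leave it through receptors that read gradients. Cxcr4, the receptor of the stromal chemokine Cxcl12, retains HSCs in the marrow, whereas S1pr1 draws cells toward the sphingosine 1-phosphate of blood and lymph. RBCs are a main source of the sphingosine 1-phosphate in blood. Ccr1 and Ccr2 are receptors of inflammatory chemokines best known on monocytes and other myeloid cells, and Cxcr5 guides lymphocytes to follicles that produce Cxcl13. Adgre5 binds Cd55, a lipid-anchored complement regulator that is also carried by RBCs. Selplg (PSGL-1) binds selectins once it has been glycosylated, Cd44 binds hyaluronan, and Cd47 binds thrombospondin and the phagocyte receptor Sirpa.

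Values are FPKM, fragments scaled by transcript length and by library depth, and so can be set side by side between genes. The sum of FPKM ranged from 680942 to 752107 over the libraries, with 14829 to 16551 symbols above 0. Absolute depth is unknown, and relative depth, with the first LSK control library as the reference, ranged from 0.886 to 1.13. The 10 genes taken as markers of HSC and LSK identity, among them Kit, Ly6a and Cd34, were above 0 in all 8 libraries, and Flt3 and Cd48 were higher in LSK cells than in HSCs in both conditions. With RBCs, Cd48 fell in HSCs from 42.7 and 40.5 to 16.0 and 22.8 FPKM (adjusted p = 0.00694, limma) and was the only 1 of the 10 to pass in either population. Of the markers that did not pass, Slamf1 (CD150) had 10.2 and 10.7 FPKM in HSCs without and 5.50 and 6.59 FPKM with RBCs, and Ly6a (Sca-1) had 388 and 444 FPKM without and 719 and 544 FPKM with RBCs in HSCs, and 381 and 226 FPKM without and 204 and 170 FPKM with RBCs in LSK cells. The part of these shifts in the members' values was not tested. No library went against its label.

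On the mouse genome (GRCm38, GENCODE M21), the members lie at 9 protein-coding loci. Ccr1 (chr9:123962124-123968692, minus strand) and Ccr2 (chr9:124101950-124113557, plus strand) are neighbours, 133257 bases apart, with Ccr1l1 and Ccr3 between them. Cxcr5 lies on the same chromosome (chr9:44511787-44561877, minus strand) and Cxcr4 on chromosome 1 (chr1:128588199-128592293, minus strand). Adgre5 (chr8:83723251-83741326, minus strand) overlaps Ddx39 on the other strand, and Cxcr5 overlaps Bcl9l on the other strand. The remaining loci were those of S1pr1 (chr3:115710433-115715072, minus strand), Selplg (chr5:113818536-113832644, minus strand), Cd44 (chr2:102811141-102901665, minus strand) and Cd47 (chr16:49800533-49915010, plus strand).

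RefSeq promoter sequences (GRCm38.p6) matched 5 of the 9 members: Cxcr4, Ccr1, Ccr2, Cd44 and Cd47. The 250 bases before the start of Ccr1 and of Cxcr4 are shown because they differ in composition among chemokine receptor genes. Any link of composition to the values with RBCs was not tested. They are printed 5′ to 3′ on the strand of the gene, with each CpG in capitals. The Ccr1 stretch is chr9:123968693-123968942 (minus strand) and the Cxcr4 stretch is chr1:128592300-128592549 (minus strand).
Ccr1: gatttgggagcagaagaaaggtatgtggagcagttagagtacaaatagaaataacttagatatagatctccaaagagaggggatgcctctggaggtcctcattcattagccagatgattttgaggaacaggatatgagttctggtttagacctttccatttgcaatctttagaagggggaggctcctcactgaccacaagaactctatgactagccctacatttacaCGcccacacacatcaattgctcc
Cxcr4: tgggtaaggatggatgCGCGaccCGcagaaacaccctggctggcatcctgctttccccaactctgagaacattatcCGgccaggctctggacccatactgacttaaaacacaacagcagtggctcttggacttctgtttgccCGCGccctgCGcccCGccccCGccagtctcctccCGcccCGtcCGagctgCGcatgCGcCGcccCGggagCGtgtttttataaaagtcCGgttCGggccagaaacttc
The Ccr1 stretch held 1 CpG and 43.6% G and C. The Ccr2 stretch (chr9:124101933-124102182) lies before the start RefSeq gives but mostly within the locus in GENCODE, which lists an earlier start, and held 1 CpG with 37.2% G and C. Cxcr4 held 19 CpGs with 61.2%, Cd44 held 5 with 56.4%, and the first listed start of Cd47 had 30 with 73.2%. That Cd47 stretch (chr16:49855404-49855653) lies wholly within the locus in GENCODE, which lists an earlier start. The median over 32851 promoters of the same length was 6 CpGs and 52.4%. Searched on both strands, the letters CACNAG (N-box) were found once in Ccr1, as in 36.7% of all promoters, and TGGGAA (the core of the RBPJ motif) was found at 2 places in Cd44, as in 21.6% of all promoters. TGANTCA (AP-1; 6.7% of all promoters), CACGTG (E-box; 6.0%), GGAAGT (an ETS core; 19.7%) and TTCNNNGAA (GAS; 7.0%) were in none of the 5 stretches. These matches are a description of letters.

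**Figure D1:**
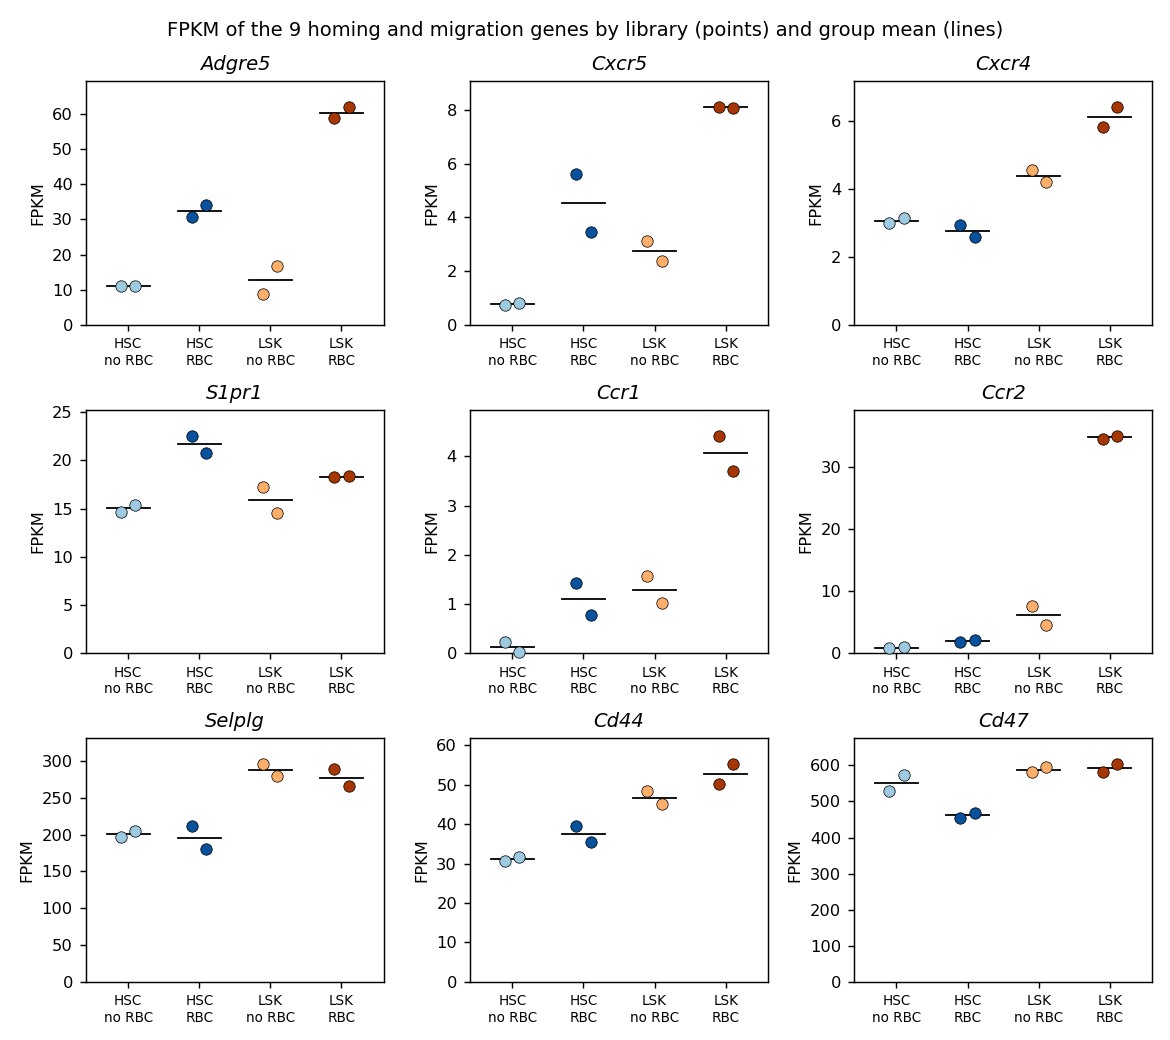
FPKM (vertical axes, each from 0) of the 9 genes in the 8 libraries, as points, with the mean of each group of 2 libraries as a line. Adgre5, Cxcr5 and Ccr1 stand higher with RBCs in both populations, Ccr2 reaches 34.4 and 35.0 FPKM in LSK cells with RBCs, and Selplg and Cd47 change little.

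The levels of the members spanned a wide range in every group. Cd47 was the most highly expressed, at 455 to 604 FPKM over the 8 libraries and with a mean above that of 98.4% of tested genes. Selplg followed at 180 to 296 FPKM and Cd44 at 30.6 to 55.3 FPKM. S1pr1 ranged from 14.5 to 22.6 FPKM and Adgre5 from 8.73 to 62.0 FPKM. Below them were Ccr2 at 0.840 to 35.0, Cxcr4 at 2.60 to 6.42, Cxcr5 at 0.731 to 8.11 and Ccr1 at 0.0315 to 4.42 FPKM. In all 4 groups, Cd47 stood first, Selplg second and Ccr1 last. Adgre5 moved past S1pr1 in both populations with RBCs, and in LSK cells it also moved past Cd44. Ccr2 went from place 7 of 9 in HSCs without RBCs to place 5 in LSK cells with RBCs. Neighbours in this order did not overlap between libraries in any group, except S1pr1 and Adgre5 in LSK cells without RBCs.

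Coculture with RBCs was compared with culture alone to find which genes differ between them. These libraries hold no culture with RBCs kept apart from the cells, so contact and soluble factors cannot be told apart. In HSCs, 2 of the 9 members passed the threshold (adjusted p under 0.05 and at least 2-fold, limma), Adgre5 and Cxcr5, both upward, where 0.633% of all tested genes passed upward. No member passed downward, where 0.142% of tested genes did. In LSK cells, 4 members passed upward, Adgre5, Cxcr5, Ccr1 and Ccr2, where 0.900% of tested genes passed, and no member passed downward, where 0.108% did. Since the members were selected with these values known, nothing is read from the difference from the background. Over the 9 members, the median difference in log2(FPKM + 1) was 0.50 in HSCs and 0.40 in LSK cells, and over all tested genes it was -0.0062 and -0.0095.

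Adgre5, the CD97 receptor, was higher with RBCs in both populations. In HSCs it stood at 11.0 and 11.2 FPKM without RBCs and at 30.7 and 34.2 FPKM with RBCs. In LSK cells it stood at 8.73 and 16.7 FPKM without RBCs and at 58.8 and 62.0 FPKM with RBCs. In each population both libraries with RBCs were above both libraries without, and the spread was widest in LSK cells without RBCs (12.7 ± 5.64 FPKM, SD, n = 2). The mean ratio was 2.93-fold in HSCs and 4.75-fold in LSK cells, with differences in log2(FPKM + 1) of 1.47 (SE 0.22) and 2.22 (SE 0.22). The call in HSCs was lost when any 1 of the 4 HSC libraries was left out (difference 1.39 to 1.54) and when no filter on low values was used, whereas the LSK call held in every fit.

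Since Adgre5 and Ddx39 overlap, the other gene was examined as well. Of all 50-base words of the Adgre5 transcripts, 16.45% also occur in Ddx39, and the library kit does not mark strand. Ddx39 had 209 and 231 FPKM in HSCs without RBCs and 222 and 231 FPKM with RBCs, and in LSK cells 222 and 224 FPKM without and 204 and 194 FPKM with RBCs, and it was not called in either. The part of Ddx39 reads in the level and fold change of Adgre5 was not tested. The partner Cd55 ranged from 9.68 to 14.0 FPKM over the 8 libraries, with a difference of -0.01 in HSCs (adjusted p = 0.991, limma) and 0.22 in LSK cells (adjusted p = 0.425). The other adhesion GPCRs listed included 7 tested genes of 11, and none of them passed in either population. Adgrl4 had adjusted p under 0.05 in both (0.0283 and 0.016, limma) at less than 2-fold. It went from 129 and 118 to 171 and 169 FPKM in HSCs, and from 98.5 and 115 to 160 and 146 FPKM in LSK cells. Adgrg5, at 2.07 FPKM or less, stood 5.61-fold and 2.84-fold higher by means (adjusted p = 0.12 and 0.206). All 7 differences were positive in HSCs, and 5 of the 7 were negative in LSK cells. Adgrg1 (GPR56) had 431 to 601 FPKM, with differences with RBCs of 0.0066 (adjusted p = 0.989) and -0.31 (adjusted p = 0.0829).

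Cxcr5, the receptor of Cxcl13, was at a low level without RBCs and higher with them. HSCs had 0.731 and 0.823 FPKM without RBCs and 5.63 and 3.44 FPKM with RBCs, and LSK cells had 3.13 and 2.39 FPKM without RBCs and 8.11 and 8.08 FPKM with them. The groups did not overlap in either population. The ratio of means was 5.83-fold in HSCs and 2.93-fold in LSK cells, and the differences in log2(FPKM + 1) were 1.61 and 1.28 (SE 0.21 each). Behind these values were at least 26 and 24 reads in HSCs kept alone, 178 and 123 in those with RBCs, 99 and 84 in LSK cells kept alone and 227 and 240 in those with RBCs. These are lower bounds, read from FPKM values that were whole multiples of a step within 0.01. The LSK call was lost with no filter and in 3 of the fits without 1 library, where the difference was still 1.14 or more. The HSC call held in every fit.

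Cxcl13, the ligand of Cxcr5, was listed at 0 in all 8 libraries. Bcl9l, which overlaps Cxcr5 on the other strand and holds 1.86% of its 50-base words, was at 1.54 and 1.38 FPKM in HSCs without RBCs and 2.94 and 2.68 FPKM with RBCs. In LSK cells Bcl9l was at 2.55 and 1.99 FPKM without and 3.20 and 2.88 FPKM with RBCs. Its differences of 0.63 and 0.31 did not pass (adjusted p = 0.0984 and 0.351, limma), and its part in the Cxcr5 values was not tested. B cells carry Cxcr5, and 8 B cell markers were therefore summed. The sum was 36.2 to 40.3 FPKM in HSCs without and 34.9 to 36.3 FPKM with RBCs, and 39.0 to 41.6 FPKM in LSK cells without and 50.1 to 52.0 FPKM with RBCs. Nearly all of this was Cd79b, at 34.1 to 51.0 FPKM. Pax5 was listed at 0 in 7 of 8 libraries, and Ms4a1 stayed under 0.2 FPKM. The 7 T cell markers summed to at most 4.63 FPKM in any library.

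Ccr2, the receptor of Ccl2 and Ccl7, differed most between the populations. It was at 0.840 and 0.976 FPKM in HSCs without RBCs and 1.87 and 2.09 FPKM with RBCs. In LSK cells it was at 7.61 and 4.57 FPKM without RBCs and 34.4 and 35.0 FPKM with RBCs, the highest values of any chemokine receptor among the members. All 4 groups were separate from each other. The ratio of means was 2.18-fold in HSCs and 5.70-fold in LSK cells, with differences in log2(FPKM + 1) of 0.64 and 2.37 (SE 0.20 each), of which only the LSK difference passed. In reads, a total of at least 564 in LSK cells kept alone stood against 2816 with RBCs. Of the ligands of Ccr2, Ccl2 was above 0 in only 1 library and Ccl7 in only 2, in none above 0.41 FPKM.

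Ccr1, the receptor of Ccl3, Ccl5 and Ccl9, was the lowest of the members. HSCs without RBCs had 0.232 and 0.0315 FPKM, from at least 9 reads and 1 read, and HSCs with RBCs had 1.42 and 0.770 FPKM, from at least 49 and 30 reads. The ratio of these reads per relative depth was 7.59, with a 95% exact interval of 3.92 to 16.4 that covers counting error only. LSK cells had 1.57 and 1.02 FPKM without RBCs and 4.42 and 3.71 FPKM with them. With RBCs, both populations had their libraries above those without. The difference in log2(FPKM + 1) was 0.88 (SE 0.22) in HSCs, which did not pass, and 1.15 (SE 0.22) in LSK cells. Calls of Ccr1 were unstable: the LSK call was lost with a pseudocount of 0.1, with no filter and in 4 of the fits without 1 library, while the HSC difference passed with a pseudocount of 0.1 (2.46).

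Of the monocyte markers, which Ccr1 and Ccr2 accompany on mature cells, 1 moved in both populations. Among 8 monocyte or macrophage markers, 4 were tested and Csf1r, the receptor of the macrophage growth factor, was the 1 that passed in each population. Csf1r had 2.53 and 2.81 FPKM in HSCs without and 7.07 and 9.37 FPKM with RBCs, and 14.1 and 22.8 FPKM in LSK cells without and 47.2 and 54.3 FPKM with RBCs (differences 1.32 and 1.44, adjusted p = 0.0121 and 0.00753, limma). The summed level of the list went from 317 to 330 FPKM in HSCs without RBCs to 234 to 235 FPKM with them, and from 226 to 318 FPKM in LSK cells without RBCs to 397 to 524 FPKM with them. Most of this sum was Lyz2 (lysozyme), at 312 and 321 FPKM in HSCs without and 221 and 218 FPKM with RBCs, and 296 and 196 FPKM in LSK cells without and 341 and 454 FPKM with RBCs, which did not pass in either. C1qa was listed at 0 in all 8 libraries, and Fcgr1 and Mrc1 were at most 0.341 and 0.185 FPKM. The 9 measured neutrophil markers of 10 listed summed to 28.5 to 36.3 FPKM in HSCs without and 83.9 to 295 FPKM with RBCs, and to 181 to 276 FPKM in LSK cells without and 433 to 641 FPKM with RBCs. Of these markers, 2 passed in each population, S100a8 and S100a9 in HSCs and Retnlg and Mmp8 in LSK cells. The 2 HSC libraries with RBCs were uneven, with 148 and 22.3 FPKM of S100a8 and 87.9 and 11.8 FPKM of S100a9. The part of such cells in the values of Ccr1 and Ccr2 was not tested.

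S1pr1, the receptor for sphingosine 1-phosphate, had 14.7 and 15.3 FPKM in HSCs without RBCs and 22.6 and 20.8 FPKM with RBCs. In LSK cells it had 17.2 and 14.5 FPKM without RBCs and 18.3 and 18.4 FPKM with RBCs. Libraries with RBCs were above those without in both populations. The ratio was 1.44-fold in HSCs and 1.15-fold in LSK cells, and the differences were 0.50 and 0.20 (SE 0.11 each). In HSCs the adjusted p was under 0.05 and the fold change under the threshold of 2, so S1pr1 was not called. Klf2, a transcription factor that drives S1pr1, rose in LSK cells from 0.759 and 0.724 to 3.11 and 3.23 FPKM (difference 1.26, adjusted p = 0.00688, limma), and in HSCs it had 0.970 and 0.823 FPKM without and 1.71 and 2.39 FPKM with RBCs (0.68, adjusted p = 0.0969). Cd69, which binds S1pr1 and takes it off the surface, differed by 0.08 in HSCs (adjusted p = 0.917) and -0.01 in LSK cells (adjusted p = 0.983).

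None of the 9 tested genes of sphingosine 1-phosphate metabolism, of 12 listed, passed with RBCs in either population. The transporter Spns2 had 59.7 to 88.7 FPKM over the 8 libraries and Mfsd2b 9.28 to 15.6 FPKM. The kinase Sphk2 had 11.7 to 15.9 FPKM, and Sphk1 at most 0.319 FPKM. The other receptors S1pr2, at 11.1 to 16.4 FPKM, and S1pr4, at 13.8 to 22.0 FPKM, did not pass.

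Cxcr4, the marrow retention receptor, showed no passing difference. HSCs had 3.0 and 3.14 FPKM without RBCs and 2.94 and 2.60 FPKM with RBCs, and LSK cells had 4.56 and 4.22 FPKM without and 5.84 and 6.42 FPKM with RBCs. The libraries with RBCs were below the others in HSCs and above them in LSK cells, and neither difference passed (-0.11 and 0.40, SE 0.14 each). Its ligand Cxcl12 was at most 0.340 FPKM, and the scavenging receptor Ackr3 was above 0 in 1 library of 8. Dpp4, the peptidase that cleaves Cxcl12, had 7.41 to 16.9 FPKM and did not pass with RBCs in either population.

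The 3 adhesion molecules differed little with RBCs. Selplg had 197 and 205 FPKM in HSCs without and 212 and 180 FPKM with RBCs, and 296 and 280 FPKM in LSK cells without and 289 and 266 FPKM with RBCs, and the groups overlapped in both populations. Cd44 had 30.6 and 31.7 FPKM in HSCs without and 39.6 and 35.4 FPKM with RBCs, and 48.4 and 45.2 FPKM in LSK cells without and 50.3 and 55.3 FPKM with RBCs. For Cd44, both libraries with RBCs were above both without in each population, with differences of 0.26 and 0.17 (SE 0.09 each). Cd47 had 530 and 574 FPKM in HSCs without and 455 and 469 FPKM with RBCs, which did not overlap, and 581 and 595 FPKM in LSK cells without and 582 and 604 FPKM with RBCs, which did. The differences of Cd47 were -0.25 and 0.01 (SE 0.06 each), and none of these 3 genes was called in either population.

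Among the partners of the adhesion molecules, thrombospondin changed in both populations. Thbs1, a ligand of Cd47, rose from 8.68 and 7.93 to 30.0 and 30.2 FPKM in HSCs and from 22.9 and 38.0 to 119 and 139 FPKM in LSK cells (differences 1.74 and 2.09, adjusted p = 0.00197 and 6.87e-04, limma). Spp1 (osteopontin), a ligand of Cd44, rose in HSCs from 2.74 and 4.87 to 20.4 and 21.8 FPKM (2.24, adjusted p = 0.00431), and in LSK cells it differed by 0.47 (adjusted p = 0.425). Sirpa, the phagocyte receptor for Cd47, had 8.69 to 13.9 FPKM and did not pass. None of the 12 glycosylation genes that make Selplg a selectin ligand passed with RBCs. Among them, the fucosyltransferases Fut7 and Fut4 had 6.87 to 30.8 and 2.36 to 5.44 FPKM, and Gcnt1, which builds the branched sugar core, 13.6 to 21.4 FPKM. Selp, one of the selectins, had 18.4 to 38.7 FPKM.

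**Figure D2:**
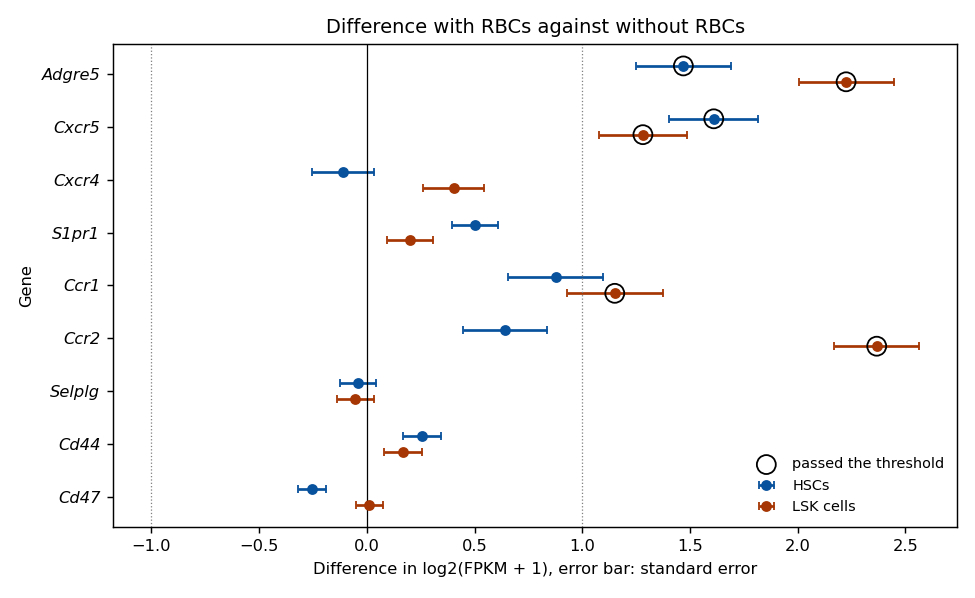
Difference in log2(FPKM + 1) between libraries with and without RBCs (horizontal axis) for the 9 genes in HSCs and LSK cells, with the standard error from limma as bars and a ring where the threshold was passed. Adgre5 and Cxcr5 carry rings in both populations, Ccr1 and Ccr2 in LSK cells, and dotted lines mark a 2-fold difference on this scale.

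In HSCs, 6 members had both libraries with RBCs above both without, where 19.9% of all tested genes did, and 2 members, Cxcr4 and Cd47, had both below, where 21.8% did. In LSK cells, 7 members had both libraries with RBCs above both without, where 24.2% of tested genes did. Whether the effect differed between HSCs and LSK cells was tested as an interaction. No member passed upward, where 0.0333% of tested genes did, or downward, where 0.0750% did (limma), and an unadjusted p under 0.05 was found for 4 of the 9 and for 1503 of the 12003 tested genes. The interaction was -1.72 (SE 0.28) for Ccr2, the HSC effect being the smaller, and it passed after quantile normalization (-1.76) and without the first LSK library without RBCs (-2.04). That of Adgre5, -0.76 (SE 0.31), passed without the second LSK library without RBCs (-1.19).

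Among all 127 listed migration genes, which hold no member, 93 were tested. In HSCs 4 passed upward and 3 downward, and in LSK cells 4 passed upward and none downward, with medians of 0.0066 and 0.07 in log2(FPKM + 1). The chemokines Ccl3, Ccl4 and Ccl9, of which Ccl3 and Ccl9 are ligands of Ccr1, fell in HSCs with RBCs. Ccl9 had 14.8 and 16.0 FPKM without and 2.69 and 4.69 FPKM with RBCs (-1.84, adjusted p = 0.00105). Ccl3 went from 4.46 and 8.16 to 2.11 and 1.87 FPKM (-1.24, adjusted p = 0.0273), and Ccl4 from 24.2 and 29.8 to 10.4 and 6.93 FPKM (-1.55, adjusted p = 0.00421). In LSK cells none of the 3 passed (0.52, -0.04 and -0.10 for Ccl3, Ccl4 and Ccl9). Ccl5, another ligand of Ccr1, had 14.7 and 11.7 FPKM in HSCs without and 17.5 and 21.4 FPKM with RBCs. Its differences of 0.53 in HSCs and 0.82 in LSK cells did not pass.

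Of 24 tested genes of chemotactic signalling, Rgs1 and Rgs2, which dampen signalling through G proteins, rose in HSCs. Rgs1 had 55.7 and 66.3 FPKM without and 158 and 126 FPKM with RBCs, a difference of 1.20 (adjusted p = 0.00361, limma). Rgs2 had 8.29 and 11.1 FPKM without and 23.6 and 19.5 FPKM with RBCs, a difference of 1.08 (adjusted p = 0.00486). In LSK cells Rgs1 differed by 0.61 (adjusted p = 0.0612, limma) and did not pass. Rgs2 went from 14.7 and 13.6 to 28.0 and 28.2 FPKM there, a difference of 0.94 (adjusted p = 0.00907). Only its fold change, under the threshold of 2, kept Rgs2 from passing in LSK cells. Gnai2, a G protein subunit used by chemokine receptors, had 235 to 267 FPKM, Rgs18 97.8 to 114 FPKM and the receptor kinase Grk2, listed as Adrbk1, 38.4 to 56.2 FPKM, and none of them passed. Among 15 regulators, sheddases and anchors, Mmp9 (a matrix protease) was the only other gene besides Klf2 to pass in LSK cells, from 0.436 and 0.599 to 3.91 and 2.92 FPKM (1.53, adjusted p = 0.0059).

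LSK cells were then compared with HSCs in each condition. Without RBCs, 3 members passed upward in LSK cells, Cxcr5, Ccr1 and Ccr2, where 1.62% of tested genes did, and none passed downward, where 1.03% did. With RBCs, 2 members passed upward, Ccr1 and Ccr2, where 2.61% of tested genes did, and none downward, where 1.0% did. The median difference of the 9 members was 0.51 without and 0.75 with RBCs, and that of all tested genes 0.0085 and 0.0075. Without RBCs, 7 members had both LSK libraries above both HSC libraries, where 28.0% of tested genes did, and Adgre5 and S1pr1 overlapped. With RBCs, 8 members had both above, where 33.7% of tested genes did, and S1pr1 had both below, where 33.1% did.

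Ccr2 stood 6.70-fold higher in LSK cells than in HSCs without RBCs and 17.6-fold higher with RBCs (1.86 and 3.59 in log2(FPKM + 1), SE 0.20 each). Ccr1 stood 9.80-fold and 3.71-fold higher (1.01 and 1.29, SE 0.22 each), the first against at least 9 reads and 1 read in HSCs. Cxcr5 stood 3.55-fold higher without RBCs and 1.79-fold with RBCs (1.07 and 0.75, SE 0.21 each). For Cxcr4 the ratios were 1.43 and 2.21, and the difference with RBCs, 0.92 (SE 0.14), passed on scales with a pseudocount of 0.5 or 0.1. Selplg differed by 0.51 and 0.50 (SE 0.08 each) and Cd44 by 0.57 and 0.48 (SE 0.09 each), all under 2-fold with adjusted p under 0.05. Cd47 differed by 0.09 and 0.36 (SE 0.06 each). Adgre5 differed by 0.12 without and 0.88 with RBCs (SE 0.22 each), and S1pr1 by 0.07 and -0.23 (SE 0.11 each). Without the first LSK library without RBCs, the calls of Cxcr5 and Ccr1 were lost and 1 of the 3 members was called.

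**Figure D3:**
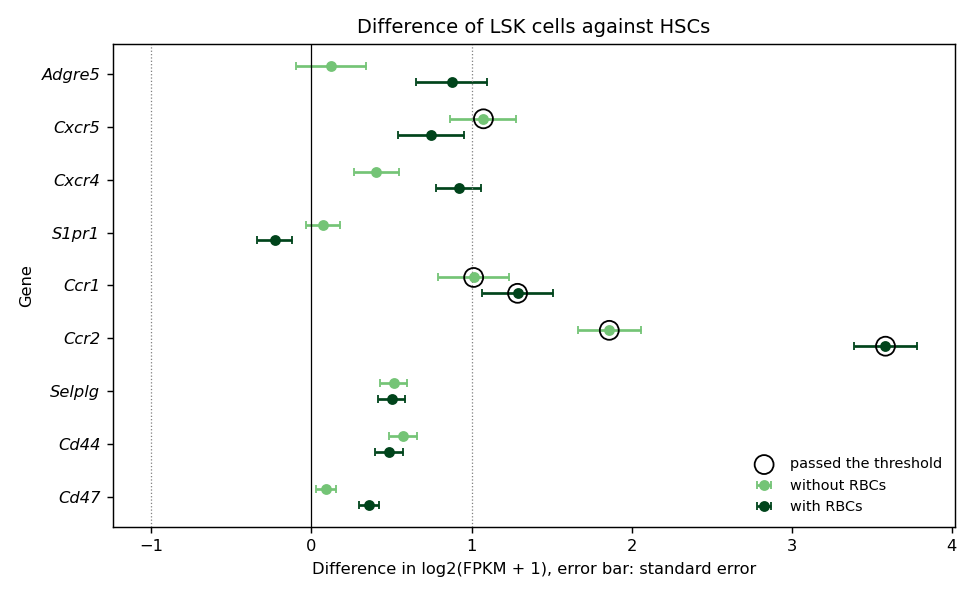
Difference in log2(FPKM + 1) between LSK cells and HSCs (horizontal axis) for the 9 genes, without RBCs and with RBCs, with the standard error from limma as bars and a ring where the threshold was passed. Ccr2 lies farthest to the right in both conditions, and S1pr1 lies on either side of 0.

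Among the 93 tested migration genes, 14 passed upward and 1 downward in LSK cells without RBCs, and 20 upward and 3 downward with RBCs. Chemokine receptors were among them: Ccr9 (a thymus homing receptor) passed in both conditions (1.87 and 1.48), and Ccr7, Cxcr2, Cxcr6 and Cx3cr1 passed with RBCs, by 1.15 to 1.37. Several were near 0 in HSCs with RBCs, where Ccr9, Ccr7, Cxcr6 and Cx3cr1 had at most 0.212, 0.355, 0.0905 and 0.107 FPKM. The LSK libraries with RBCs had 2.91 and 0.867 FPKM of Cxcr6. The leukotriene receptor Ltb4r1 and the adhesion GPCR Adgrg3 passed in both conditions. Of the ligands of Ccr1, Ccl3 was higher in LSK cells by 3.69 without and 5.46 with RBCs, and Ccl9 by 2.22 and 3.96. Ccl5 went the other way, by -0.80 without and -0.50 with RBCs, and did not pass. Fut7 and Cd69 also passed upward in both conditions, with adjusted p for Cd69 of 0.00147 and 0.00134 (limma). The granule proteases Elane and Ctsg, which can cut surface receptors, and the sheddase Adam17 passed upward in both, as did Thbs1, Ccl4 and Ccl6, and Mmp9 with RBCs. Ppap2b, a lipid phosphatase that breaks down sphingosine 1-phosphate, passed downward in both conditions, and Spp1 and Mmp14 with RBCs.

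**Figure D4:**
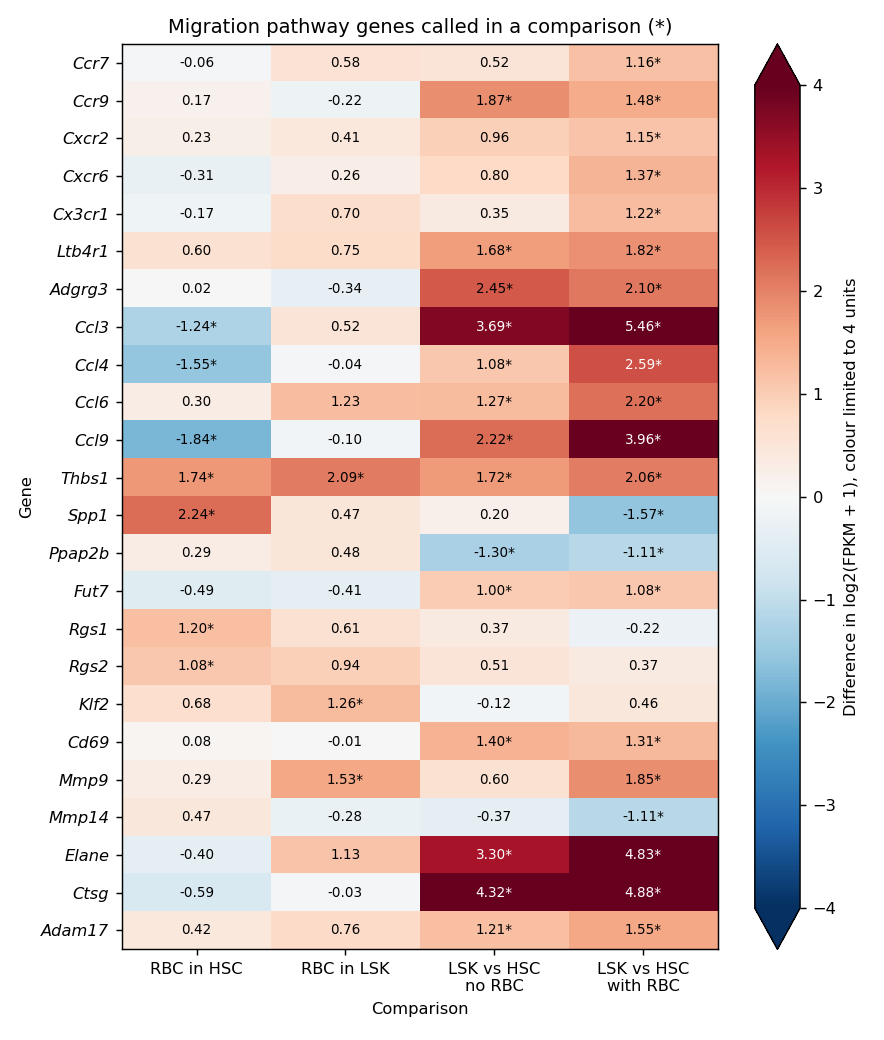
Differences in log2(FPKM + 1) of 24 listed migration genes that passed in at least 1 of 4 comparisons (columns), as numbers and colours, with a star where the threshold was passed. Thbs1 has stars in all 4 columns, and Ccl3, Ccl4 and Ccl9 are lower with RBCs in HSCs and higher in LSK cells than in HSCs.

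The members did not follow a single pattern over the 8 libraries. Ccr1 and Ccr2 had a Pearson r of 0.942, Ccr1 and Cxcr5 of 0.937, Cxcr4 and Ccr2 of 0.95 and Adgre5 and Cxcr5 of 0.853, whereas Adgre5 and Cd47 had -0.085 and S1pr1 and Cd47 -0.670. These correlations are over libraries of 4 groups that share the contrasts above, and describe them. Of tested genes that varied by at least 1 log2 unit, those most like Adgre5 were Arrdc4 (r = 0.983), Als2cl (0.980) and Gbp4 (0.977), and those most like Cxcr5 were Rgs2 (0.976), Htra3 (0.974) and Dhrs3 (0.970). Those most like Cxcr4 were Pyhin1 (0.995), Tcn2 (0.994) and Tcp11l2 (0.992), those most like Ccr1 were Cotl1 (0.985), Cited4 (0.983) and Kcne3 (0.982), and those most like Ccr2 were Rnase6 (0.992), Emb (0.987) and Itgal (0.985). S1pr1 was most like Abi3 (0.972), Itm2a (0.957) and Rgs1 (0.957), Selplg like Ceacam1 (0.991), Cd44 like P2rx4 (0.993) and Cd47 like Ddit4l (0.977), and each r is over the same 8 libraries.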

How the data were processed

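RNA from 8 bulk libraries (2 for each of HSCs and LSK cells, alone and with RBCs) was made into full-length cDNA with a kit that does not mark strand. For each gene symbol the authors deposited an FPKM value, normalized for transcript length and depth. The submitters' processing notes name the mouse build mm10, TopHat2 2.1.1, Bowtie2 2.2.8, SAMtools 0.1.18 and Cuffdiff 2.2.1, and the annotation is not given in the sources used here. Groups were taken from the sample labels, and replicates were not pooled.

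The deposited FPKM were put on a log2(FPKM + 1) scale, and 12003 of 24346 symbols, those reaching 1 FPKM in 2 or more libraries, were tested. Differences on this scale understate those of genes with low FPKM. limma 3.58.1 in R 4.3.3 fitted the 4 group means together with a mean-variance trend (residual degrees of freedom 4, prior 5.18). A gene was called at a Benjamini-Hochberg adjusted p under 0.05, over all tested genes, and at least a 2-fold difference. The procedure was tested on simulated data. The members, the pathway lists and the marker lists were chosen with earlier results of these data known. Genes named are the members, listed pathway genes called in a comparison (some genes are not reported here) and a set of direct partners called or not, and the tested genes most like each member. Markers of red blood cells and platelets were measured as well and are given with the other observations. Bcl9l, Ddx39, single marker genes, Ccl5, Adgrg1, Adgrl4 and Adgrg5 are named beyond that rule, after their values were seen, as were the members' correlations. Absolute depth is unknown, and numbers of reads are lower bounds read from the steps of the values. Intervals from them cover counting error only.

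Positions came from GENCODE M21 (GRCm38), the build of the files, and promoters from RefSeq (GRCm38.p6), of which only the 250 bases before each start were used. Settings tried instead were other pseudocounts, filters, scalings (3) and trends, the fold threshold, the libraries in the fit, a replicate block and the omission of each library in turn.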

Additional observations from a re-analysis of the deposited data

Results flagged for a closer look

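The effect of RBCs on Ccl9, a ligand of Ccr1, differed between HSCs and LSK cells by a test of the difference itself. The HSC effect minus the LSK effect was -1.74 in log2(FPKM + 1) (SE 0.25, adjusted p = 0.0453, limma), with both HSC libraries with RBCs below both without (2.69 and 4.69 against 14.8 and 16.0 FPKM) and the LSK libraries at 65.5 and 75.5 FPKM with RBCs against 72.4 and 78.5 FPKM without. The call was lost under 5 other settings and, leaving out 1 library at a time, without each of 5 libraries.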

How the results depend on the processing

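Values of the members are on the log2(FPKM + 1) scale. With RBCs in HSCs, the main count of 2 members and 7 pathway genes called became 1 and 4 with no filter on low values. In LSK cells, 4 members became 2 with no filter, and 4 pathway genes became 7 with no fold threshold. For the interaction, 0 members became 1 after quantile normalization, and the 1 pathway gene became 0 with a pseudocount of 0.1 or 0.5, with no filter, with a filter of 1 library or with no trend. Between LSK cells and HSCs without RBCs, 3 members and 15 pathway genes became 5 and 28 with no fold threshold. With RBCs, 2 members and 23 pathway genes became 8 and 37 with no fold threshold, and 5 members passed at 1.5-fold. Leaving out 1 library at a time, where the lone library of a group is assumed to vary like the others, gave 1 to 2 and 2 to 4 members called with RBCs in HSCs and LSK cells, 0 to 1 for the interaction, 1 to 3 between LSK cells and HSCs without RBCs and 2 to 3 with RBCs. For pathway genes the ranges were 6 to 7, 1 to 6, 0 to 1, 13 to 16 and 19 to 23. In LSK cells with RBCs, 1 pathway gene was left without the first LSK library with RBCs. The cause was not tested.

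Signs turned for Selplg, Cd47, Adgre5, S1pr1 and Ccr1. With 1 library left out, Selplg ranged from -0.16 to 0.074 in HSCs, from -0.11 to 0.0057 in LSK cells and from -0.104 to 0.13 for the interaction, and after quantile normalization it was 0.0070 in LSK cells and -0.0197 for the interaction. Cd47 in LSK cells ranged from -0.0146 to 0.0383. Between LSK cells and HSCs without RBCs, Adgre5 ranged from -0.31 (without the second LSK library) to 0.55 (without the first) and S1pr1 from -0.0442 to 0.19, the lower value without the first LSK library. The interaction of Ccr1 turned with a pseudocount of 0.1 (0.86). Same-numbered libraries did not deviate together (correlations of -0.067 to 0.095 between groups), so the numbers were taken as names only. With the replicate block, the counts of members called were 2, 4, 0, 3 and 2, in the order above, and of pathway genes 7, 4, 1, 14 and 23. Among the members, what depth limits is Ccr1 in HSCs without RBCs, with 10 reads or more in all.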

Other observations

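Red blood cell RNA was measured beside the members, since the cultures with RBCs were lysed before sorting. The 8 measured markers of 9 listed summed to 282 to 338 FPKM in HSCs without and 299 to 308 FPKM with RBCs, and to 111 to 177 FPKM in LSK cells without and 119 to 184 FPKM with RBCs. Single globin genes differed among themselves. Hba-a1 had 0.0826 and 1.40 FPKM in HSCs without RBCs and 116 and 88.7 FPKM with them, and 0.864 and 1.53 FPKM in LSK cells without and 32.9 and 43.1 FPKM with them. Hbb-b2, the largest part of the sum, had 279 and 335 FPKM in HSCs without and 120 and 158 FPKM with RBCs, and 109 and 173 FPKM in LSK cells without and 128 and 54.1 FPKM with RBCs. Hbb-b1 had 1.93 and 1.94 FPKM in HSCs without and 65.1 and 31.0 FPKM with RBCs, but 0.907 and 2.12 FPKM in LSK cells without and 0.0438 and 0.0145 FPKM with RBCs. Hbb-bs had 0.0123 and 0.0386 FPKM in HSCs without and 0.00753 and 19.1 FPKM with RBCs. In LSK cells Hbb-bs had 0.00522 and 0.172 FPKM without and 18.9 and 19.4 FPKM with RBCs. These globin genes are near-identical copies, so the split of reads among them is uncertain. Slc4a1, the anion exchanger of the red cell membrane, was listed at 0 in 7 of 8 libraries. Of the 6 tested markers, 3 passed upward in HSCs (Hba-a1, Hbb-b1 and Alas2) and 1 in LSK cells (Hba-a1). The 7 platelet markers summed to 186 to 223 FPKM in HSCs without and 183 to 198 FPKM with RBCs, and to 104 to 198 FPKM in LSK cells without and 79.0 to 95.2 FPKM with RBCs. Of the 6 tested platelet markers, Gp1ba passed upward in HSCs (2.44 and 2.78 FPKM without, 8.37 and 5.85 FPKM with RBCs, adjusted p = 0.0136, limma) and Pf4 downward in LSK cells (130 and 37.8 FPKM without, 13.5 and 19.1 FPKM with RBCs, adjusted p = 0.0376). The part of either in the values of the homing genes was not tested.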
